A study of Homo sapiens with 6 samples.

Results

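TXNIP and the arrestin-domain genes ARRDC1, ARRDC2, ARRDC3 and ARRDC4 were followed in HCT116 cells, a human colorectal carcinoma line, after 48 h with NU7441 at 40 µM. NU7441 blocks DNA-PK, a kinase of DNA double-strand break repair. Matching cells were given 0.1% (v/v) dimethyl sulfoxide (DMSO), the vehicle, for 48 h. Each group had 3 samples, all grown in DMEM with serum, and RNA of each sample was hybridised to 1 Illumina bead array. The 5 genes, of 20045 named on the array, were taken by the gene symbol of the array platform with all their probes, which gave 9 of 47323 probes. Each probe comes with a detection p, the chance of such a signal among the negative controls. Probes with a detection p below 0.05 on all 3 NU7441 or all 3 vehicle arrays were retained. Under this rule 4 of the 9 probes were kept, from 3 of the 5 genes, out of 14973 kept probes and 9342 named genes in the whole series.

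The α-arrestins are adaptor proteins with an arrestin fold. Most of them carry motifs that bind ubiquitin ligases of the NEDD4 family, and through these they send membrane proteins to endosomes and lysosomes. TXNIP, the best studied of them, binds and inhibits thioredoxin and lowers glucose uptake by promoting endocytosis of the glucose transporter GLUT1. TXNIP and ARRDC4 are transcribed under MondoA (gene MLXIP) or ChREBP (gene MLXIPL) with their partner MLX when glucose is plentiful. ARRDC3 acts on integrin β4, and ARRDC1 directs the budding of vesicles from the plasma membrane.

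Promoter windows were looked up because TXNIP is the classical target of MondoA and ChREBP and because MLX and MLXIPL, which encode factors of that circuit, were called in these data. RefSeq windows on GRCh38.p14, from 250 bases before to 50 bases after an annotated start, were at hand for 5 of the 5 genes, 8 windows in all. Each was searched on both strands for 3 motifs that do not overlap one another in them. The motifs were a pair of E-box-like elements 5 bases apart (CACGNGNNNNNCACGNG, the carbohydrate response element), the CCAAT box (CCAAT) and a forkhead motif (GTAAACA). The windows below are printed for the following reasons. TXNIP was the member with the E-box pair, ARRDC4 is its partner as a glucose-responsive gene, the ARRDC3 window holds a forkhead motif and faces an antisense gene, and the ARRDC2 windows belong to the gene with the called probe. Capitals mark the motif matches, and every sequence runs 5′ to 3′ on the gene's own strand.
TXNIP, upstream start (chr1:145996530-145996829, minus strand): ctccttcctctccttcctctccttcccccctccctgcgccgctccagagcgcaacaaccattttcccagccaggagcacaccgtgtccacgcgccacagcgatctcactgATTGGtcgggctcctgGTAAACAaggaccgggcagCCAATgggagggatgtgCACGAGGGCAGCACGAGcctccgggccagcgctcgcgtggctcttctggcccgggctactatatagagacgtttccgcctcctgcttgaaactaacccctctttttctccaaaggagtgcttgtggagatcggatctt
ARRDC4 (chr15:97960453-97960752, plus strand): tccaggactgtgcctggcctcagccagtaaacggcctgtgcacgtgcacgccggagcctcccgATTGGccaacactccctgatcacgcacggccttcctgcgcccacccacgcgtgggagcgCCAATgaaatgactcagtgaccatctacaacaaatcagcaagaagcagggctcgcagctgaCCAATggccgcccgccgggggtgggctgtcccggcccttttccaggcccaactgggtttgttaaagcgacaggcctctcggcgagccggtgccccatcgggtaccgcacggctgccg
ARRDC3, downstream start (chr5:91380048-91380347, minus strand): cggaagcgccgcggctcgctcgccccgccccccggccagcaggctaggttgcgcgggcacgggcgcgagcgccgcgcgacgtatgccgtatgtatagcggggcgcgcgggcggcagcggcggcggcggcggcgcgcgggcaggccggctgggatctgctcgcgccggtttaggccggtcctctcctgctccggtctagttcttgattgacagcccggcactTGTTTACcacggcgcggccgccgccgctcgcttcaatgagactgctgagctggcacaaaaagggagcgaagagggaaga
ARRDC2, upstream start (chr19:18000874-18001173, plus strand): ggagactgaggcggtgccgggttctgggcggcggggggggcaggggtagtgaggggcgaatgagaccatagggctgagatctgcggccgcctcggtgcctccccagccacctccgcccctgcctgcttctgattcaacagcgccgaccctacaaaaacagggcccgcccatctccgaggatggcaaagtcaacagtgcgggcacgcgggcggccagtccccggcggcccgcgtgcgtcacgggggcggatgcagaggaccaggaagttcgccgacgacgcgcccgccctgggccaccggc
ARRDC2, downstream start (chr19:18007920-18008219, plus strand): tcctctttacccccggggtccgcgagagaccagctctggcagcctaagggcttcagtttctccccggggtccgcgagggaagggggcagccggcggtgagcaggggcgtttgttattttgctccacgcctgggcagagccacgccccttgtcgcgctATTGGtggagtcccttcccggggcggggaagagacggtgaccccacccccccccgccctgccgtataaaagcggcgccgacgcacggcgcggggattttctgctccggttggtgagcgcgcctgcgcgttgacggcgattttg

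The E-box pair occurred in 1 of the 8 windows, that of the upstream TXNIP start, between 88 and 72 bases before the start. Of the RefSeq windows of full length outside chromosome 8, called all windows here, 20 of 35116 held it, or 0.057%. Because TXNIP was looked up as a classical target, its match is a description and no test. Only this pattern was searched, so looser forms of the element would be missed in any window. The same TXNIP window held a forkhead motif from 124 to 118 bases before the start, between 2 CCAAT boxes. The forkhead motif occurred in 2 of the 8 windows and in 3.42% of all windows, and the CCAAT box in 5 of the 8 and in 34.6% of all. ARRDC4 held 3 CCAAT boxes and no match to the other motifs. The window of the upstream ARRDC2 start held none of the 3. A match describes letters and shows no binding, and a window without one says only that these letters are not in it.

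Probe signals were background corrected, quantile normalized and put on a log2 scale with an offset of 16, so that a value near 4 means no signal beyond background. Between 35.1% and 37.6% of probes were detected per array, and the number of arrays limits the precision. Quantile normalization gives all arrays one distribution, so a change in total RNA per cell is not measured. Of 10 epithelial and colorectal markers 6 had a kept probe. EPCAM, CDH1, KRT8, KRT18, KRT19 and CDX2 were detected on all 6 arrays. By the limma fit CDH1 was higher with NU7441 (log2 fold change 0.52, adjusted p = 0.00569), and a second KRT18 probe was lower (-0.49, adjusted p = 0.0144). KRT20, CDX1, VIL1 and LGALS4 had no kept probe. Of 8 markers of blood, stroma, endothelium, liver and islets, PTPRC, CD3E, PECAM1, COL1A2 and INS had none, and ALB, CD68 and COL1A1 had a kept probe that was not called. Whether the replicates came from separate cultures is not stated in the labels. The p-values therefore rest on how far these samples spread, and that spread may be technical. Changes are given as log2 fold changes, NU7441 over vehicle, each with its limma standard error (SE, n = 3 arrays per group). Their p-values were adjusted by Benjamini-Hochberg over all 14973 kept probes. In that fit 34.2% of the kept probes passed an adjusted p of 0.05, 16.7% higher and 17.5% lower.

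**Figure D1:**
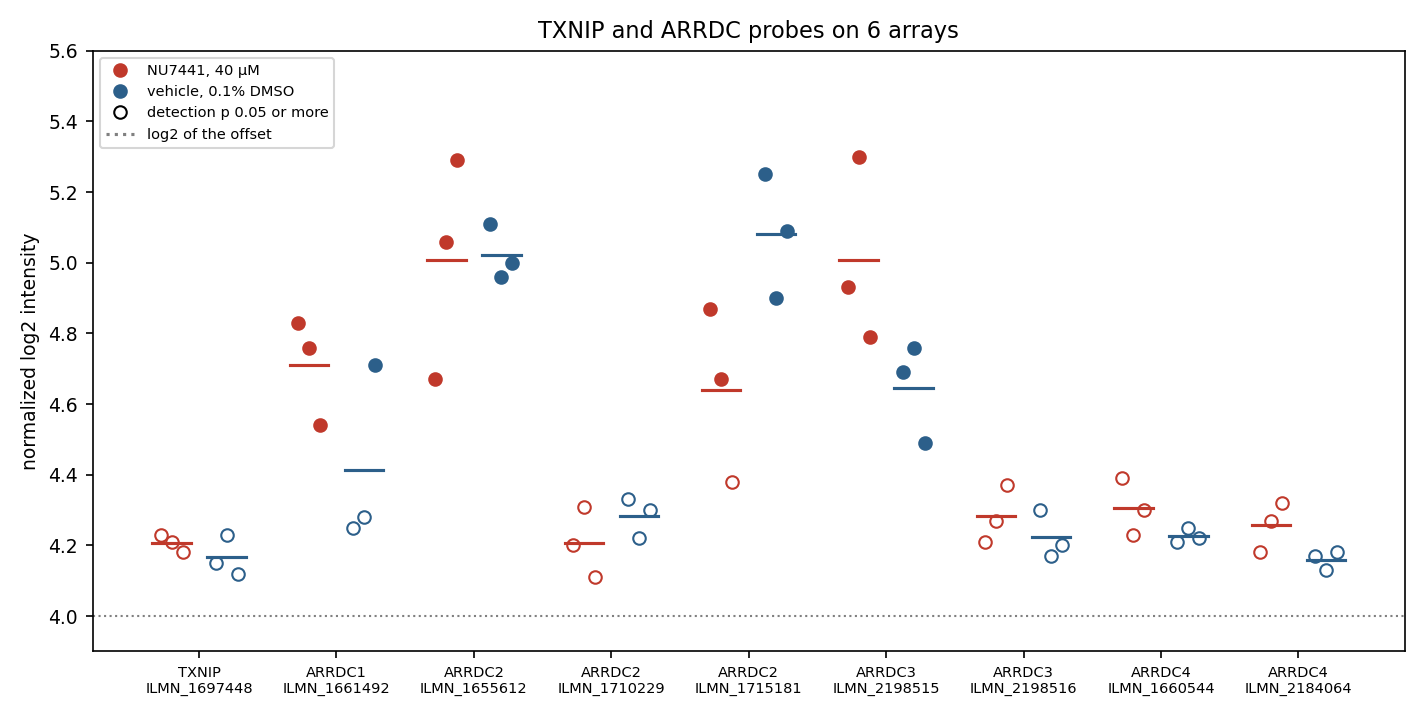
Normalized log2 intensity (vertical axis) of the 9 probes of TXNIP and ARRDC1 to ARRDC4 (horizontal axis), with NU7441 arrays at the left and vehicle arrays at the right of each probe, a bar at each group mean and open circles where the detection p was 0.05 or more. The TXNIP, both ARRDC4, 1 ARRDC2 and 1 ARRDC3 probe lie between 4.11 and 4.39 with open circles on all 6 arrays, close to the dotted line at the log2 of the offset, and each of the other 4 probes reaches higher on at least 1 array.

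TXNIP was not well above background in either group. Its single probe had signals of 71.5, 71.7 and 71.7 on the NU7441 arrays, against 70.2, 72.7 and 68 on the vehicle arrays. The median signal of all probes on these arrays was between 72.8 and 75.3. On the normalized scale TXNIP read 4.23, 4.21 and 4.18 with NU7441 and 4.15, 4.23 and 4.12 with vehicle. The groups overlapped, and the detection p ran from 0.355 to 0.910. The probe was therefore not tested and no fold is given, and a change of TXNIP was not detectable on these arrays. The only base for this statement is 1 probe.

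ARRDC4, the closest relative of TXNIP in its response to glucose, was not well above background either. Its probe ILMN_1660544 had signals of 74.8, 72.2 and 75.5 with NU7441, against 72.5, 73.5 and 72.8 with vehicle. The second probe, ILMN_2184064, had 69.8, 73.3 and 76 with NU7441 and 71.2, 68.5 and 71.3 with vehicle. Neither was detected on any array. The normalized values of ILMN_2184064 were 4.18, 4.27 and 4.32 with NU7441 and 4.17, 4.13 and 4.18 with vehicle, and the groups met at their edges without overlapping. Those of ILMN_1660544 overlapped. Both groups of both probes stayed below the detection limit, so no fold is given.

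Over the 5 probes that were not kept, which also include 1 of 3 ARRDC2 probes and 1 of 2 ARRDC3 probes, 0 of 30 measurements were detected. Their signals ran from 67.5 to 77.1. The value nearest to the detection limit among them was that of ARRDC3 probe ILMN_2198516 on NU7441 replicate 3, at a detection p of 0.0779. Just inside the limit among the kept probes was ARRDC3 probe ILMN_2198515 on vehicle replicate 3, at 0.0351.

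Of the 4 kept probes 1 was lower with NU7441 in the limma fit and 0 were higher, where 17.5% and 16.7% of all kept probes were. At an unadjusted limma p below 0.05, 1 was lower and 1 was higher, where 22.5% and 22.3% of all kept probes were. The arrays of the groups did not overlap for 2 of the 4, where they did not overlap for 47.1% of all kept probes. Of the 4, 2 were detected on all arrays of both groups. The other two were kept through the group in which they were higher, ARRDC1 through NU7441 and an ARRDC2 probe through vehicle, so a difference in that direction was favoured by the rule.

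ARRDC2 gave unlike values on its probes. This gene encodes a little studied α-arrestin. Probe ILMN_1715181 read 4.87, 4.67 and 4.38 with NU7441, against 5.25, 4.90 and 5.09 with vehicle. Every NU7441 array lay below every vehicle array, by a margin of a few hundredths between the nearest. The probe was lower with NU7441, by a log2 fold change of -0.44 ± 0.14 (SE, 95% interval -0.74 to -0.14, adjusted p = 0.0256), a ratio of 0.738. It was detected on 2 of 3 NU7441 arrays and on 3 of 3 vehicle arrays, with a detection p of 0.0688 on NU7441 replicate 3. The call was lost without NU7441 replicate 2 or 3 (adjusted p = 0.0555 and 0.088) and without vehicle replicate 1 or 3 (adjusted p = 0.117 and 0.0761). Without NU7441 replicate 3 the log2 fold change was -0.30, and without background correction it was -0.15 (adjusted p = 0.086).

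The other kept ARRDC2 probe, ILMN_1655612, is annotated to the same RefSeq transcript and did not pass the test. It was brighter than ILMN_1715181 with NU7441 (mean log2 5.01 against 4.64) but not with vehicle (5.03 against 5.08). It read 4.67, 5.06 and 5.29 with NU7441 and 5.11, 4.96 and 5.0 with vehicle. The NU7441 arrays spread to both sides of the vehicle arrays, with an SD of 0.31 against 0.08. The log2 difference between the groups was -0.02 ± 0.14 (SE, 95% interval -0.33 to 0.29, adjusted p = 0.930), so on this scale the interval leaves out a change of more than 1.22-fold upward or to less than 0.798 of vehicle. The third ARRDC2 probe, ILMN_1710229, is annotated to another transcript of the gene and was not detected on any array, with signals of 70.5, 74.4 and 67.5 for NU7441 and 75.8, 72.5 and 75.1 for vehicle.

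The gap between the kept ARRDC2 probes varied more among the NU7441 arrays than among the vehicle arrays. The log2 value of ILMN_1655612 minus that of ILMN_1715181 was -0.20, 0.39 and 0.91 with NU7441 replicates 1, 2 and 3. With vehicle it was -0.13, 0.06 and -0.09. The difference between the groups was 0.42, with overlapping arrays (exact two-sided permutation test, p = 0.4). A comparison of 3 against 3 arrays allows no p below 0.1, so this test could not have passed 0.05 and settles nothing on whether the probes respond alike. The mean of both stood at -0.23 ± 0.10 (SE, adjusted p = 0.0952 over 9342 genes) and was not called.

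ARRDC3 was higher on the normalized scale in every NU7441 array than in every vehicle array but missed the threshold. The detected probe, ILMN_2198515, read 4.93, 5.30 and 4.79 with NU7441, against 4.69, 4.76 and 4.49 with vehicle. NU7441 replicate 2 was the highest of the 6, and the lowest NU7441 array stood just above the highest vehicle array. Before normalization the groups overlapped, with signals of 82.7, 93.3 and 85.9 with NU7441 and 82.9, 82.6 and 78.8 with vehicle. The difference on the log2 scale was 0.36 ± 0.14 (SE, 95% interval 0.07 to 0.66, adjusted p = 0.0557), a ratio of 1.29. It passed when only 1 probe per gene entered the fit (adjusted p = 0.0457), with array weights (0.48, adjusted p = 0.00855) and without NU7441 replicate 3 (0.46, adjusted p = 0.0194). Without NU7441 replicate 2 it was 0.22 (adjusted p = 0.24). The second ARRDC3 probe, annotated to the same transcript, had signals of 70.8, 73.4 and 77.1 with NU7441 and 75.1, 70.7 and 72 with vehicle and was not detected on any array.

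The antisense gene ARRDC3-AS1, looked at after its values were seen, starts on the opposite strand so that its promoter window shares 251 bases with that of the downstream ARRDC3 start. Its detected probe read 4.74, 4.51 and 4.55 with NU7441, against 5.27, 4.84 and 4.91 with vehicle. The groups did not overlap. It was lower with NU7441, at -0.41 ± 0.13 (SE, 95% interval -0.69 to -0.13, adjusted p = 0.0274). ARRDC3 itself stood at 0.36 and was not called, and a link between them was not tested. The call of ARRDC3-AS1 was not checked with arrays left out or under other settings. The second ARRDC3-AS1 probe was not detected on any array.

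ARRDC1 was detected on 3 of 3 NU7441 arrays and 1 of 3 vehicle arrays. Its probe ILMN_1661492 read 4.83, 4.76 and 4.54 with NU7441, against 4.25, 4.28 and 4.71 with vehicle. Vehicle replicate 3 lay among the NU7441 arrays, and the other two vehicle arrays lay below all of them. The difference of 0.30 ± 0.14 on the log2 scale (SE, 95% interval 0.00 to 0.59, adjusted p = 0.112) did not pass. It passed without vehicle replicate 3, at 0.44 (adjusted p = 0.0324), and under none of the other alternatives that gave a value.

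Fold sizes of these dim probes depend on the offset. With an offset of 1 in place of 16, an alternative chosen after the data were seen, the log2 fold changes were 0.92 ± 0.40 for ARRDC1, -0.07 ± 0.29 and -0.96 ± 0.34 for the ARRDC2 probes ILMN_1655612 and ILMN_1715181, and 0.77 ± 0.29 for ARRDC3 (SE). With no background correction they were 0.10, 0.00, -0.15 and 0.13 in the same order. None of the 4 probes passed in either setting.

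**Figure D2:**
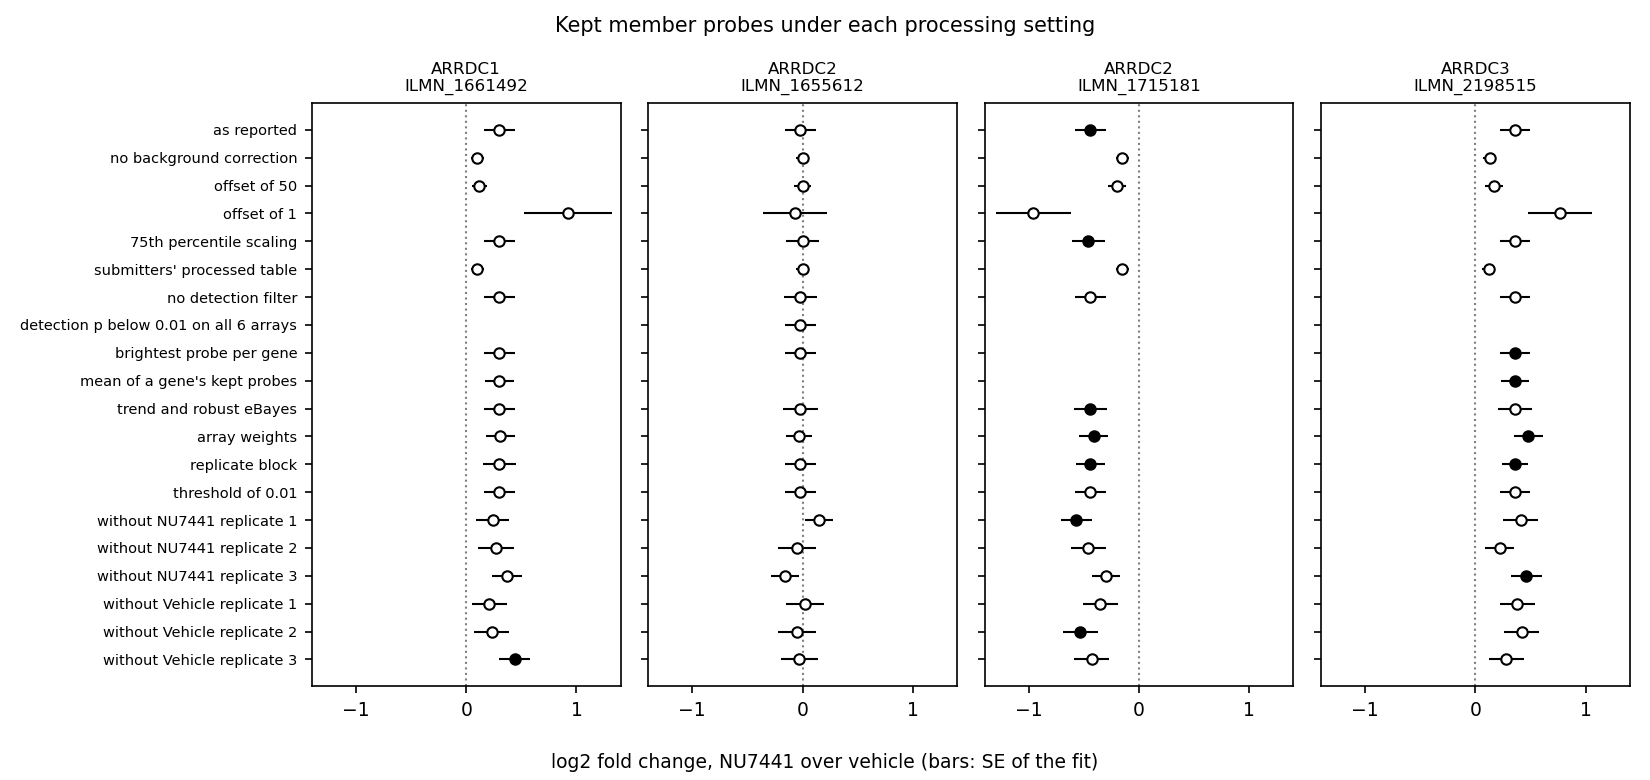
Log2 fold change of NU7441 over vehicle (horizontal axis, bars: SE of the fit) of the 4 kept probes under each processing setting (vertical axis), filled where the adjusted p passed the threshold of that setting; a gap means that the probe was not in that fit. ARRDC2 probe ILMN_1715181 stays below 0, between -0.96 and -0.15, and ARRDC3 stays above 0, between 0.12 and 0.77, while ARRDC2 probe ILMN_1655612 lies on both sides of 0.

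The genes whose arrays ran most like each detected member were found by the root mean square distance between probe-centred log2 values over the 6 arrays, which rests on few arrays and is a description only. For ARRDC1 the nearest were SRR (0.0572), IL18 (0.0578) and PIGS (0.0628), followed by LINC00339 and SNRK. For ARRDC2 probe ILMN_1655612 they were TNPO1 (0.0388), STX2 (0.0402) and SLC31A2 (0.0463), followed by VTI1B and METTL5. For ARRDC3 they were RHBDF2 (0.0529), TMEM191B (0.0586) and OAT (0.0682), followed by DHX40 and STOX1. Of these 15 genes SRR and RHBDF2 were called, at 0.34 and 0.43, where 34.2% of all kept probes were. The 15 were chosen for likeness to member probes that were not called, so that share is no yardstick for them.

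Genes around the family were taken from 8 lists by role, each gene by its brightest kept probe. Over all named genes 36.6% of 9342 were called, 17.7% higher and 18.9% lower, with a median log2 fold change of 0.00. At an unadjusted limma p below 0.05, 23.1% were higher and 23.9% lower. Of 13 called list genes, 5 kept their call without any 1 array, namely MLX, SCD, TXNRD1, TXNRD2 and SLC2A1. The number of kept genes is given with each list below. The share of all called genes that kept their call was not computed, so 5 of 13 is a description only.

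The transcription factors that drive TXNIP and ARRDC4 did not move together. MLX, the shared partner, read 5.41, 5.26 and 5.52 with NU7441, against 5.93, 5.85 and 6.01 with vehicle. The groups stood well apart, and MLX was lower at -0.53 ± 0.12 (SE, adjusted p = 0.00289). MLXIPL, which encodes ChREBP, read 7.04, 6.87 and 6.12 with NU7441, against 6.07, 5.98 and 6.03 with vehicle on its brighter probe. It was higher at 0.65 ± 0.18 (SE, adjusted p = 0.0136), with NU7441 replicate 3 near the vehicle level, and its second probe was higher too, at 0.58 ± 0.12 (adjusted p = 0.00226). The call of the brighter probe was lost without NU7441 replicate 1 or 2 or vehicle replicate 2, at adjusted p-values from 0.0527 to 0.0649. MLXIP, which encodes MondoA, was not detected on any array. In the list of 3 factors 1 of 2 kept genes was thus higher and 1 lower, where 17.7% and 18.9% of all named genes were. The median of the list was 0.06.

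Of 9 genes known as targets of these factors, mostly from liver, 6 had a kept probe. By limma 2 of them were higher and 0 lower, where 17.7% and 18.9% of all named genes were. The median of the list was 0.26. At an unadjusted p below 0.05, 3 of the 6 were higher and 0 lower, where 23.1% and 23.9% of all named genes were. SCD, stearoyl-CoA desaturase, was higher at 0.69 ± 0.12 (SE, adjusted p = 0.000469), and FASN, fatty acid synthase, at 0.38 ± 0.12 (adjusted p = 0.0231). The call of FASN was lost without any 1 array other than NU7441 replicate 3, at adjusted p-values from 0.0591 to 0.0808. KLF10, a MondoA target in many cell types, stood at 0.08 (adjusted p = 0.669), and its second kept probe at -0.02.

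The thioredoxin system, to which TXNIP binds, did not move in one direction. TXN, cytosolic thioredoxin, was at -0.06 ± 0.11 (SE, adjusted p = 0.702) on its brighter probe and at 0.12 on the other. TXNRD1, the cytosolic thioredoxin reductase, was higher on both probes, at 1.04 ± 0.11 and 0.74 ± 0.13 (adjusted p = 1.57e-05 and 0.000714). The mitochondrial partners were lower, TXNRD2 at -0.52 ± 0.12 (adjusted p = 0.00359) and TXN2 at -0.36 ± 0.12 (adjusted p = 0.0373). The call of TXN2 was lost without NU7441 replicate 3 or any 1 vehicle array, at adjusted p-values from 0.0706 to 0.12. Of 4 kept genes of the list 1 was higher and 2 were lower by limma, where 17.7% and 18.9% of all named genes were. The median of the list was -0.21, and NLRP3 and MAP3K5, which encode binding partners of TXNIP or thioredoxin, had no kept probe.

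Some glucose transporters, among them GLUT1, are cargo of TXNIP and ARRDC4. SLC2A1, which encodes GLUT1, read 9.58, 9.32 and 9.39 with NU7441, against 8.78, 8.85 and 8.70 with vehicle. It was higher at 0.65 ± 0.11 (SE, adjusted p = 0.000676), and the groups stood apart by more than their own ranges. SLC2A8 was higher at 0.40 ± 0.14 (adjusted p = 0.0374). SLC2A12 was detected on 3 NU7441 arrays and on 0 vehicle arrays and was called higher by limma (adjusted p = 0.0488). With each vehicle array set at the lowest signal detected on it, or the probe's own if higher, the group means stood 1.14-fold apart. That ratio carries no sampling error, and the 95% interval of the SLC2A12 fit reached down to 1.05-fold. Since its probe was kept only through NU7441, the filter favoured this direction, and without this gene 2 transporters were higher. Both calls were lost without any 1 array other than NU7441 replicate 3, at adjusted p-values from 0.0669 to 0.141 for SLC2A8 and from 0.0602 to 0.158 for SLC2A12. SLC2A3, which encodes GLUT3, was at -0.26 (adjusted p = 0.169). Of 13 genes in the list 6 had a kept probe. By limma 3 of them were higher and 0 lower, where 17.7% and 18.9% of all named genes were. The median of the list was 0.29. At an unadjusted p below 0.05 it was again 3 of 6 higher and 0 lower, where 23.1% and 23.9% of all named genes were.

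No ubiquitin ligase of the NEDD4 family passed the limma test. Of 9 genes 6 had a kept probe, with a median of -0.20. At an unadjusted p below 0.05, 1 of the 6 was lower and 0 were higher, where 23.9% and 23.1% of all named genes were. SMURF1 (-0.22) and WWP2 (-0.19) were kept only through vehicle, so the filter favoured the lower direction for them and for the median. NEDD4 was at -0.25 ± 0.11 (SE, adjusted p = 0.0922), WWP1 at -0.22 ± 0.12 (adjusted p = 0.176) and ITCH, which ubiquitinates TXNIP, at -0.01 ± 0.13 (adjusted p = 0.938). Other arrestin-fold genes did not pass either, with 0 of 4 kept genes called at an adjusted or an unadjusted p. Of all named genes 36.6% were called at an adjusted p. ARRB1, β-arrestin 1, was at -0.02 on its brightest probe and at 0.24 and -0.27 on the others. The probe at -0.27 was kept only through vehicle, so the filter favoured that direction. The genes VPS26A, VPS26B and VPS26C, of retromer and retriever coats, were at 0.14, 0.18 and 0.16. ARRDC5, the remaining α-arrestin, was not detected on any array.

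ESCRT is the machinery through which ARRDC1 buds vesicles. Of 6 ESCRT genes 1 was higher and 0 were lower by limma, where 17.7% and 18.9% of all named genes were. The median of the list was 0.00. At an unadjusted p below 0.05, 2 of the 6 were higher and 0 lower, where 23.1% and 23.9% of all named genes were. VPS4B, an ATPase of that machinery, was higher at 0.38 ± 0.11 (SE, adjusted p = 0.0142), with the call lost without vehicle replicate 1 or 3 (adjusted p = 0.0557 and 0.051). TSG101, the partner of ARRDC1 in budding, was at 0.26 ± 0.11 (adjusted p = 0.0746). Among upstream regulators 2 of 7 kept genes were higher and 0 lower by limma, where 17.7% and 18.9% of all named genes were. The median of the list was 0.28. At an unadjusted p below 0.05, 4 of the 7 were higher and 0 lower, where 23.1% and 23.9% of all named genes were. FOXO1, a forkhead factor known to act on TXNIP, was higher at 0.49 ± 0.14 (adjusted p = 0.0139) and FOXO4 at 0.40 ± 0.12 (adjusted p = 0.0209). The call of FOXO1 was lost without NU7441 replicate 2 or vehicle replicate 2 (adjusted p = 0.066 and 0.0762), and that of FOXO4 without NU7441 replicate 2 or 3 or vehicle replicate 2 or 3 (0.0506 to 0.09). FOXO3 was at 0.28 ± 0.12 (adjusted p = 0.0973), and at 0.18 on its second kept probe (adjusted p = 0.319). The other kept genes, PRKAA1, PRKAB1, PRKAB2 and PRKAG1, were at 0.11, -0.16, 0.18 and 0.28 and were not called. PRKAG1 was among the 4 at an unadjusted p below 0.05. PRKAB2 was kept only through NU7441, so the filter favoured its direction. The glucocorticoid receptor NR3C1 had no kept probe.

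**Figure D3:**
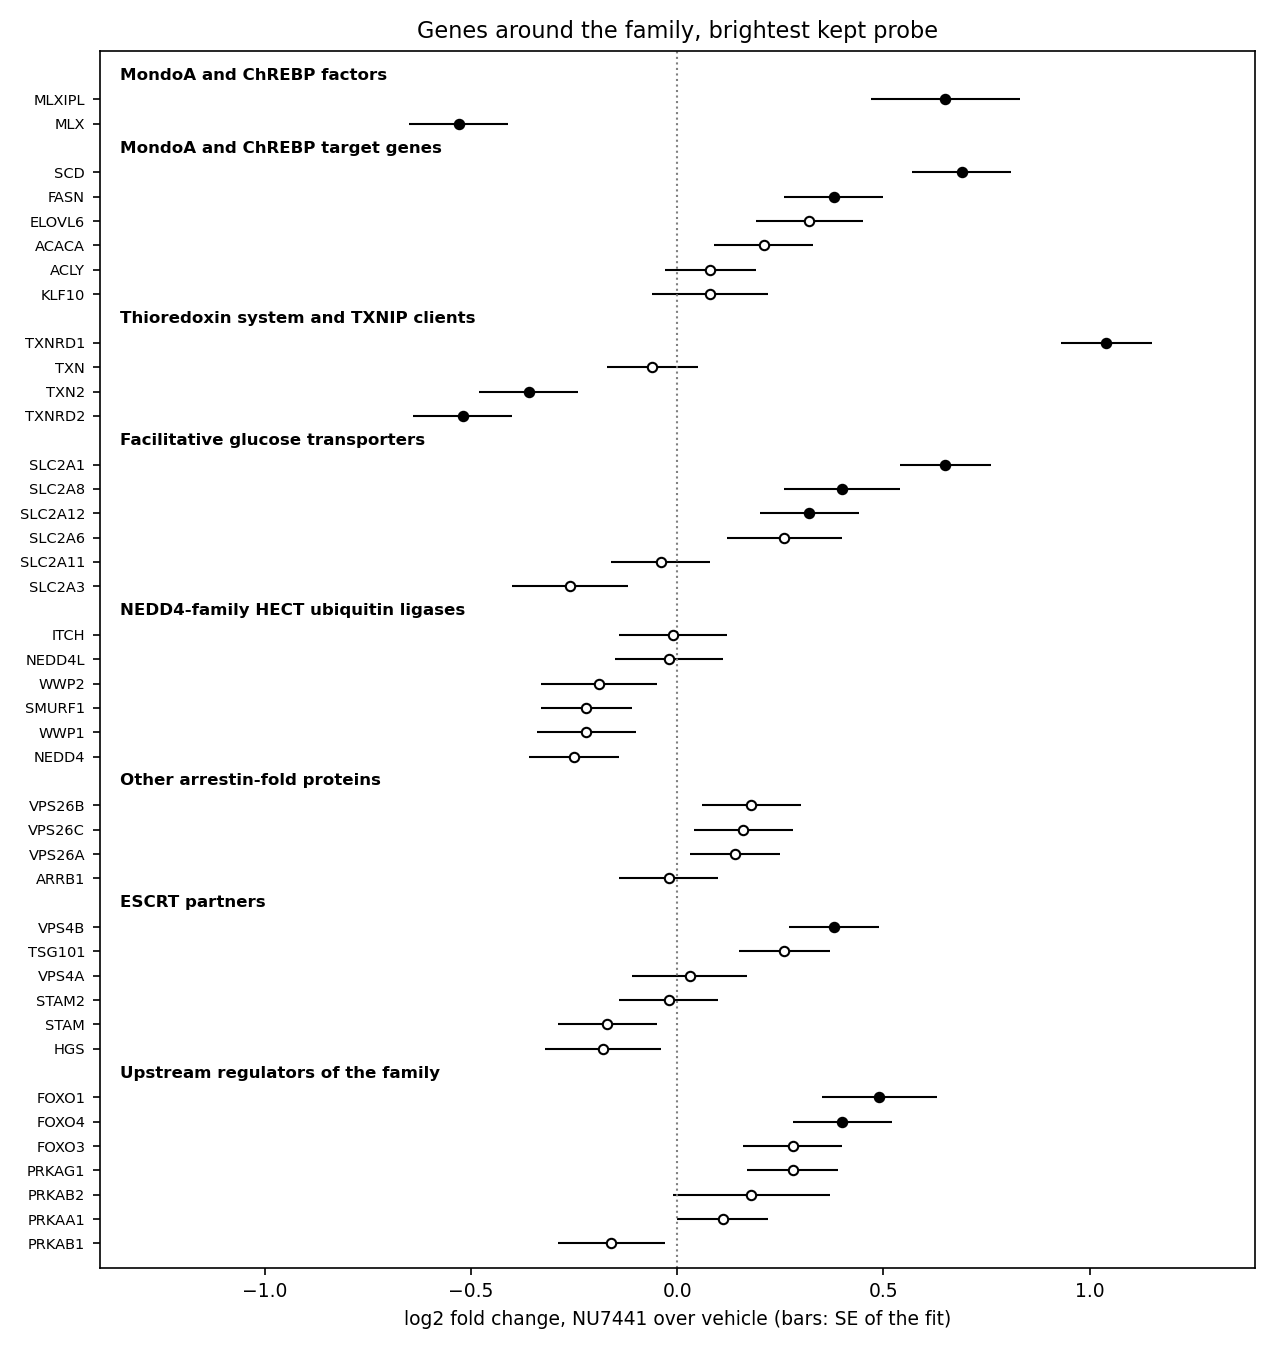
Log2 fold change of NU7441 over vehicle (horizontal axis, bars: SE of the fit) of the list genes with a kept probe, grouped by role and sorted within a group, filled where the adjusted p was below 0.05. TXNRD1 stands highest at 1.04, SCD, SLC2A1 and MLXIPL follow, and MLX and TXNRD2 stand lowest at -0.53 and -0.52, while no ligase or other arrestin-fold gene is filled.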

How the data were processed

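Total RNA of 6 samples was hybridised to Illumina bead arrays. For every probe the authors deposited a linear intensity, not yet normalized, and a detection p-value, per the file headers. A second deposited table holds log2 values. Set against log2 signals after quantile normalization these differed by at most 0.0612, every column had a median of 6.22, and each column's deviations on brighter probes followed its own array (r of 1 after rounding) more closely than any other (0.785 or less), so the scale is log2 and not centred. That table served as an alternative, and for 1 probe no value of it was used. The submitters' processing notes name GenomeStudio, R 3.0.2 and lumi, with no order or settings.

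Signals were corrected and normalized by neqc of limma 3.58.1 (R 4.3.3), which infers the negative controls from the detection p-values, with an offset of 16, which shrinks folds of dim probes. All 14973 kept probes were tested with lmFit and eBayes, with no term but group, and called at 0.05 after Benjamini-Hochberg adjustment. Gene symbols came from GEO's annotation of the platform, where 30112 probes have 1 symbol, 8 several and 17203 none. The limma fit alone was run on simulated log2 values, and its outcome is not reported here. That run took in neither the background correction, the offset nor the detection filter. The members, lists and tests were chosen with earlier results of these data known. The rule for named genes took all member probes, up to 4 called genes of each list with members the results refer to, and the 5 genes most like each detected member. TXNRD3, ARRB2 and PDCD6IP were not analysed here. Probe and protein sequences were not used here. Plots used matplotlib 3.10.9 under Python 3.11.15.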

Additional observations from a re-analysis of the deposited data

How the results depend on the processing

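All values in this paragraph are log2 fold changes of NU7441 over vehicle or counts of called probes or genes. ARRDC2 probe ILMN_1715181 kept its direction in the 16 alternatives that gave it a value and its call in 6. It did not pass without background correction (-0.15, adjusted p = 0.086), with an offset of 50 (-0.20), with an offset of 1 (-0.96), in the submitters' processed table (-0.15), with no detection filter (-0.44, adjusted p = 0.122) and at a threshold of 0.01 (-0.44). Leaving out 1 array gave -0.57 to -0.30. ARRDC3 kept its direction in 18 alternatives and passed with the brightest probe or the mean of a gene's kept probes (0.36 each), array weights (0.48), the replicate block (0.36, adjusted p = 0.037) and without NU7441 replicate 3, with 0.22 to 0.46 over left-out arrays. ARRDC1 was between 0.21 and 0.44 over left-out arrays. ARRDC2 probe ILMN_1655612 passed in 0 of 18, between -0.16 and 0.15, with a sign that changed. With detection below 0.01 asked on all 6 arrays it was the only member probe tested, and fits of 1 value per gene hold no value of ILMN_1715181.

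At a threshold of 0.01, 1383 probes were higher and 1637 lower, against 2502 and 2618 at 0.05. Left-out arrays gave 1772 to 2540 higher and 1996 to 2561 lower. The share of calls that were higher was 48.9%, and 36.5% with 75th percentile scaling. Deviations from the group means correlated between -0.113 and 0.046 for arrays of the same number, and between -0.0812 and 0.149 for the others. With 3 arrays per group these values cannot show whether arrays of the same number belong together, and the labels do not state it. The replicate block called 4859 probes in place of 5120 and changed the call of SLC2A12 (adjusted p = 0.0524) and ARRDC3 and no other call among the kept member probes and the list genes by their brightest probe. A block for the slide could not be fitted, since no slide is recorded in the files.

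Counts of the lists moved by more than 1.5 times as follows, and the cause was not tested. Without background correction, with an offset of 50 or in the submitters' table, 1 gene of the thioredoxin system was lower and 2 ESCRT genes were higher, and in the submitters' values there was 1 higher upstream regulator. With an offset of 1, 0 MondoA and ChREBP factors and 1 of their targets were higher, 1 thioredoxin gene was lower and 2 ligases, NEDD4 and SMURF1, were lower. With 75th percentile scaling 1 glucose transporter, 0 ESCRT genes and 1 upstream regulator were higher and 1 ligase, WWP1, was lower. With no detection filter 0 factors, 1 glucose transporter and 0 upstream regulators were higher and 1 thioredoxin gene was lower. With probes averaged per gene 2 ESCRT genes were higher. With trend and robust eBayes 1 thioredoxin gene was lower. With array weights 1 thioredoxin gene and 1 ligase, NEDD4, were lower and 4 upstream regulators higher. At a threshold of 0.01, 0 factors, 1 target, 1 glucose transporter, 0 ESCRT genes and 0 upstream regulators were higher and 1 thioredoxin gene was lower. Over left-out arrays the higher genes numbered 0 to 1 for factors, 1 to 3 for targets, 1 to 4 for transporters, 0 to 1 for ESCRT and 0 to 3 for regulators, and the lower genes 1 to 2 for the thioredoxin system and 0 to 1 for transporters. Signal over background limits TXNIP and ARRDC4 entirely, since 0 of their measurements were detected.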
